A study of Mus musculus with 6 samples.

Results

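The claudins described here are Cldn1, Cldn3, Cldn4, Cldn6, Cldn7, Cldn8 and Cldn23, 7 genes taken by name from the 19938 genes that could be named on the arrays. Each was read by a single probe set, a group of short probes for that gene, annotated to its symbol alone. RNA from cultured mouse epidermal keratinocytes was hybridised to 6 Affymetrix arrays, 2 for each of 3 genotypes. The cells came from the skin of C57BL/6 embryos aged E18.5, all labelled female, and were grown for 2 to 5 days, with titles giving no calcium, the signal that drives these cells to differentiate. Control mice were Ovol2flox/+; Ovol1+/- or Ovol2flox/+;K14-Cre. Mice of the group labelled Ovol1 KO were Ovol1-/-. Mice of the group labelled Ovol1/2 DKO were Ovol2flox/-;K14-Cre; Ovol1-/-, with Cre driven by the keratin 14 promoter of basal keratinocytes. Controls thus carried a heterozygous Ovol1 allele or a Cre-deleted copy of Ovol2 in some mice, and each array pooled 2 mice.

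Claudins are small membrane proteins that cross the membrane several times and polymerise into the strands of the tight junction, the seal between neighbouring epithelial cells. Their extracellular loops decide whether ions and water pass between cells, and their tails bind scaffold proteins inside the cell. In mouse epidermis the seal lies in the granular layer, and loss of Cldn1 there leads to fatal water loss after birth. Ovol1 and Ovol2 are zinc finger transcription factors of epithelia.

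Some arrays did not match their labels, and this touches every result. The Ovol1 level (log2) was 9.64 and 9.95 in control and 5.96 and 6.22 in Ovol1/2 DKO. It was no lower than control on the arrays labelled Ovol1 KO (10.75 and 9.80), which are named by their label throughout. Ovol2 was not lower in Ovol1/2 DKO by the test (log2 difference from control -0.10, SE 0.45, limma adjusted p = 1.0). Whether either probe set lies in the deleted part is not known here, and one outside it checks nothing. Xist, expressed in female cells, was near background on control replicate 1 and on replicate 1 labelled Ovol1 KO (4.43 and 4.54, against 10.99 to 11.43 on the other arrays). The keratins of basal keratinocytes were high on every array (Krt5 13.39 to 13.55, Krt14 13.21 to 13.39). The median array intensity lay between 103.3 and 109.8, and the number of arrays limits the precision.

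Levels are log2(intensity + 16). A level at or under 6.20, the highest array median of probe sets with no gene name, is called near background. Levels of different genes come from different probes, so their order is not read as an order of RNA amounts. Intensities summed over a list weigh its brightest probe sets most and are compared between arrays only. With 2 arrays a group, 0.333 is the smallest two-sided p of an exact permutation test. The p-values given here come from a limma fit to all 19938 genes, which pools the spread. The replicates are labelled as biological, each a pool of mice, and p-values measure the spread between these pools. In bulk RNA, fewer cells expressing a claudin and less claudin RNA per cell cannot be told apart.

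Cldn7, a claudin of lateral membranes that binds the adhesion protein Epcam, read 10.88 and 11 on the control pair, 10.37 and 11.14 on the labelled Ovol1 KO pair, and 4.42 and 5.62 on the Ovol1/2 DKO pair. Both Ovol1/2 DKO arrays were near background, while the control and labelled Ovol1 KO arrays overlapped. In linear intensity this was 1860 and 2040 in control against 5.44 and 33.2 in Ovol1/2 DKO.

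Cldn3 and Cldn4 are neighbouring genes and both encode receptors for a Clostridium enterotoxin. Cldn3 read 11.38 and 11.74 on the control pair, 11.27 and 12.04 on the labelled Ovol1 KO pair, and 5.72 and 7.46 on the Ovol1/2 DKO pair. Cldn4 read 12.91 and 12.87 on the control pair, 12.62 and 12.98 on the labelled Ovol1 KO pair, and 8.95 and 9.99 on the Ovol1/2 DKO pair. Both were low in Ovol1/2 DKO alone. Cldn4 stayed above background there, while 1 of the Ovol1/2 DKO arrays had Cldn3 near background and the other did not.

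Cldn6, a claudin of embryonic epithelia whose excess in the epidermis disturbs the barrier, read 11.23 and 11.01 in control. It stood at 10.14 and 11.01 with the Ovol1 KO label and at 7.55 and 7.63 in Ovol1/2 DKO. The Ovol1/2 DKO arrays lay close together and above background. Cldn1, the claudin on which the epidermal water barrier depends, read 12.98 and 13.25 on the control pair, 13.07 and 13.23 on the labelled Ovol1 KO pair, and 11.50 and 12.01 on the Ovol1/2 DKO pair. Its probe set was thus bright in every genotype and lowest in Ovol1/2 DKO.

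Cldn23 read 7.59 and 7.96 on the control pair, 10.04 and 8.48 on the labelled Ovol1 KO pair, and 4.84 and 5.70 on the Ovol1/2 DKO pair. It was the member with the widest spread within the labelled Ovol1 KO group (SD 1.1), and its 3 groups did not overlap. Cldn8, known from the kidney collecting duct and colon, read 6.28 and 5.94 on the control pair, 6.91 and 6.33 on the labelled Ovol1 KO pair, and 5.81 and 5.91 on the Ovol1/2 DKO pair. At levels this close to background its probe set gave little signal in any genotype.

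**Figure D1:**
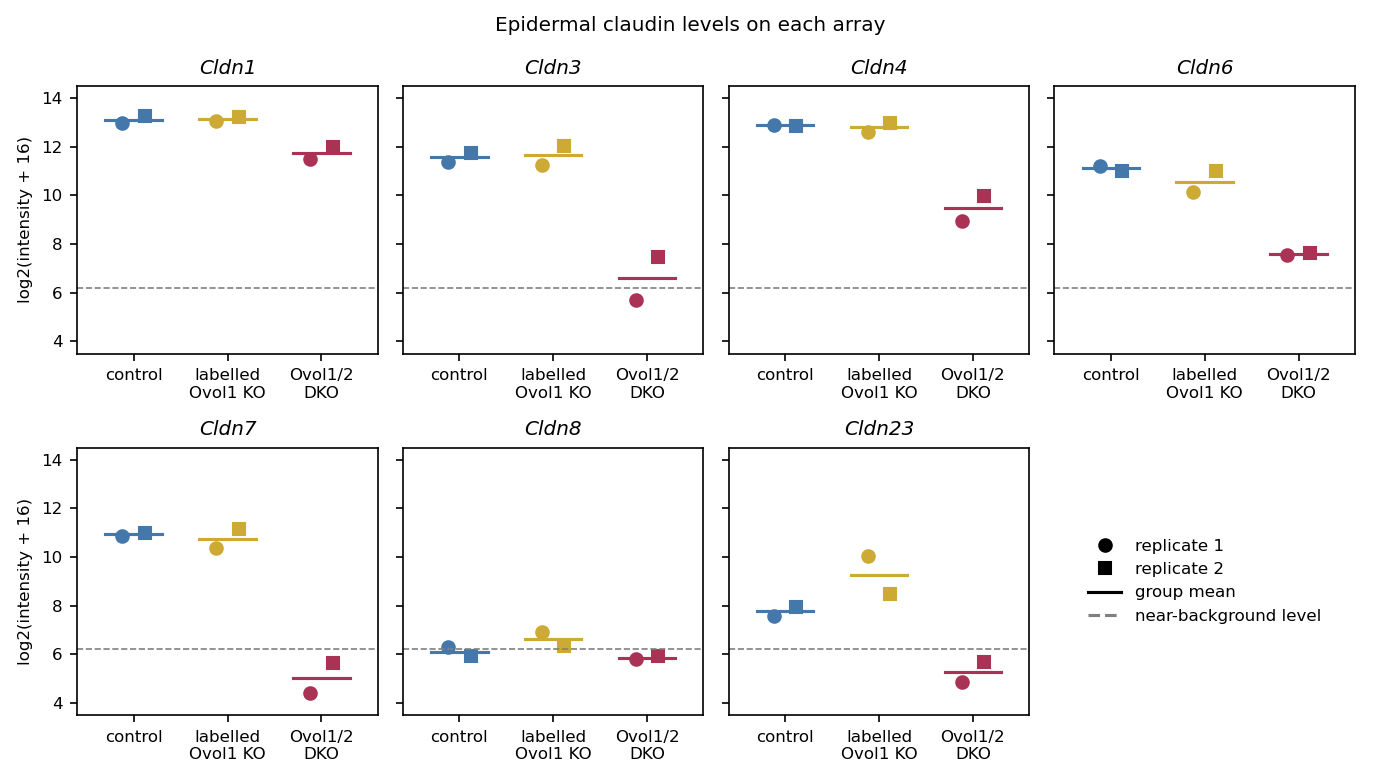
Level of each claudin, as log2(intensity + 16), on each of the 6 arrays; circles are replicate 1, squares replicate 2, lines group means, and the dashed line is the near-background level of 6.20. The mean of Cldn7 is 10.94 in control and 5.02 in Ovol1/2 DKO, that of Cldn1 is 13.12 and 11.76, and Cldn8 lies near the dashed line in all groups.

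Against control, Cldn7, Cldn3, Cldn6 and Cldn4 fell in Ovol1/2 DKO, and Cldn1, Cldn23 and Cldn8 did not pass the test. At a limma adjusted p under 0.05, 4 of the 7 members fell and none rose, where 1.4% of all 19938 genes fell and 0.622% rose. Cldn7 fell by 5.92 on the log2 scale (SE 0.43, n = 2 per group, limma adjusted p = 0.00449). Cldn3 fell by 4.97 (SE 0.56, limma adjusted p = 0.0127). Cldn6 was at -3.53 (SE 0.31, limma adjusted p = 0.00686) or 11.6-fold and Cldn4 at -3.42 (SE 0.35, limma adjusted p = 0.00918) or 10.7-fold. Because Cldn7 ended near background, its size depended on the constant added before the logarithm and was -7.04 with 1 and -4.61 with 64, so no fold or rank is given. Cldn3, near background on 1 Ovol1/2 DKO array, was at -5.27 with 1 and -4.35 with 64, and is given no fold either. Cldn3, Cldn4, Cldn6 and Cldn7 each kept their call in all 16 alternatives tried. These are not all separate checks, since leaving out either labelled Ovol1 KO array equals fitting only the groups compared.

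Of the members that did not pass, Cldn1 differed by -1.36 (95% interval -1.95 to -0.77, limma adjusted p = 0.0513), just outside the threshold. Cldn23 differed by -2.50 (95% interval -3.77 to -1.24, limma adjusted p = 0.0840), and Cldn8 by -0.25 (95% interval -0.88 to 0.37, limma adjusted p = 0.991). Without both arrays that lacked Xist, Cldn1 was at -1.50 and Cldn23 at -2.69. That setting left a single control and a single labelled Ovol1 KO array, so spread was measured in the Ovol1/2 DKO pair alone. Calls given below for that setting rest on that pair and are not a result about the genes counted. Cldn23 passed with only the control and Ovol1/2 DKO arrays fitted (limma adjusted p = 0.0322). Leaving out either labelled Ovol1 KO array gives the same fit for this comparison, so it is not a separate check. All 7 members had both Ovol1/2 DKO arrays below both control arrays, as 18.1% of all genes did. The median difference over the members was -3.42, against 0.03 over all genes.

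The Ovol1/2 DKO arrays themselves differed for these genes. Replicate 2 read higher than replicate 1 for 7 of the 7 members, by 1.74 for Cldn3, 1.2 for Cldn7, 1.03 for Cldn4, 0.86 for Cldn23, 0.51 for Cldn1, 0.09 for Cldn8 and 0.08 for Cldn6. Of all genes, 45.8% were higher in that replicate, and the median gap was -0.03. Without replicate 1 of Ovol1/2 DKO the difference from control was -5.32 for Cldn7 and -4.10 for Cldn3, and without replicate 2 it was -6.52 and -5.84. All 4 values passed. All 10 fibroblast markers were higher in the same replicate (median gap 0.40). In control 9 of the 10 were higher in replicate 2 (median gap 0.74), and in labelled Ovol1 KO 9 were (0.73), so this was shared by all groups. The part of these markers in the claudin gap was not tested.

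No claudin passed when labelled Ovol1 KO arrays were set against control, groups that by their labels differ in Ovol1. By the genotypes listed, controls also carried an Ovol2flox allele and, in some mice, Cre, which cannot be told apart from Ovol1 here. Of all genes 0.0% passed here in either direction by limma with adjustment, and 0.767% had an unadjusted limma p under 0.05. Without both Xist-lacking arrays 20 genes passed, none of them a member. Of the members, Cldn23 was 1.49 higher (95% interval 0.23 to 2.75, limma adjusted p = 0.999), the 16th highest difference of all genes. It was 2.27 without replicate 2 labelled Ovol1 KO and 0.71 without replicate 1, so the size rested on 1 array, which also carried the signal of the Y-linked gene Eif2s3y (13.80, against at most 5.14 elsewhere). Cldn8 differed by 0.51 (95% interval -0.12 to 1.13) and Cldn6 by -0.55 (95% interval -1.28 to 0.19). Cldn1, Cldn3, Cldn4 and Cldn7 differed by 0.03, 0.10, -0.09 and -0.19, with intervals of -0.56 to 0.62, -1.24 to 1.44, -0.93 to 0.75 and -1.22 to 0.84. The intervals of Cldn3, Cldn6, Cldn7, Cldn8 and Cldn23 reach past a 2-fold change. Cldn8 and Cldn23 had both arrays above both control arrays, as 8.82% of all genes did.

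Ovol1/2 DKO against the arrays labelled Ovol1 KO asks, by the labels, what the loss of Ovol2 adds. Of these groups only the Ovol1/2 DKO mice are listed with Cre, so Cre and the loss of Ovol2 cannot be told apart. On the arrays Ovol1 differed by -4.18 (SE 0.34, limma adjusted p = 0.00477). Ovol2 differed by -0.57 (SE 0.45, limma adjusted p = 0.665), which did not pass. The comparison shares the Ovol1/2 DKO arrays with the first one, so its values are not a second test of them. Cldn7 differed by -5.73 (SE 0.43, limma adjusted p = 0.00427), Cldn3 by -5.07 (SE 0.56, limma adjusted p = 0.00972) and Cldn4 by -3.33 (SE 0.35, limma adjusted p = 0.00874). Cldn6 differed by -2.99 (SE 0.31, limma adjusted p = 0.00831), Cldn23 by -4.00 (SE 0.53, limma adjusted p = 0.0146) and Cldn1 by -1.39 (SE 0.25, limma adjusted p = 0.0364). These 6 members fell and none rose, where 1.91% of all genes fell and 1.24% rose, and Cldn8 did not pass (-0.76, 95% interval -1.38 to -0.13, limma adjusted p = 0.243). The call of Cldn1 was lost without any 1 of the labelled Ovol1 KO or Ovol1/2 DKO arrays (limma adjusted p = 0.0970 to 0.230). Without replicate 1 labelled Ovol1 KO, Cldn3 (-5.46, limma adjusted p = 0.0509) and Cldn23 (-3.22, limma adjusted p = 0.0502) also missed the threshold, which left 3 members. Cldn23 missed it without Ovol1/2 DKO replicate 1 as well (-3.57, limma adjusted p = 0.0756). With both Xist-lacking arrays left out, Cldn7 was at -6.11, Cldn3 at -5.46, Cldn4 at -3.51, Cldn6 at -3.42, Cldn23 at -3.22, Cldn1 at -1.47 and Cldn8 at -0.47. Counts of passing genes also moved over all genes when arrays were left out. The member counts in those settings are therefore not a result about the members.

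The sequences before the start sites are shown for the 4 claudins that fell against control, because these genes moved together. RefSeq start sites of the mouse build GRCm38.p6 were found for 5 of the 7 members, Cldn1, Cldn3, Cldn4, Cldn6 and Cldn7, the last with 2 starts; Cldn8 and Cldn23 are named only. The 250 bases before each start were searched on both strands for 4 motifs. CAGGTG, which reads as CACCTG on the opposite strand, and CAGGTA, whose opposite reading is TACCTG, are E-boxes of the kind bound by Zeb and Snai repressors. CCGTTA (opposite reading TAACGG) is a core bound by Ovol1, and AACCGG (opposite reading CCGGTT) is a site of Grainyhead factors. Windows lie at chr5:134985964-134986213 (plus strand) for Cldn3, chr5:134946935-134947184 (minus strand) for Cldn4, chr17:23679115-23679364 (plus strand) for Cldn6 and chr11:69964529-69964778 (plus strand) for the first start of Cldn7. The last line is a stretch of 30 bases, chr11:69965352-69965381 (plus strand), before the second start of Cldn7. It was cut from the 250 bases because it holds motifs, and a further CAGGTG match 97 bases before that start lies outside it. The 250 bases before the second start lie downstream of the first start. Sequences run 5′ to 3′ on the gene's strand, and capitals mark the motifs.
Cldn3: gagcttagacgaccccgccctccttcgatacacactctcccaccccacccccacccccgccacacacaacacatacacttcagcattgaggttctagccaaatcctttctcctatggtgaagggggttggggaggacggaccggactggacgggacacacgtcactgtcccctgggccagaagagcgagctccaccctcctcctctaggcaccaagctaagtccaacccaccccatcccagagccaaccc
Cldn4: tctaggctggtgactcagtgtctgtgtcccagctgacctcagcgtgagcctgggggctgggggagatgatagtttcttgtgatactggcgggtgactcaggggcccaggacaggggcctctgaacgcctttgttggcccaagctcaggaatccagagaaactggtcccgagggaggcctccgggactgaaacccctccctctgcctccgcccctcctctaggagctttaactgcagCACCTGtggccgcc
Cldn6: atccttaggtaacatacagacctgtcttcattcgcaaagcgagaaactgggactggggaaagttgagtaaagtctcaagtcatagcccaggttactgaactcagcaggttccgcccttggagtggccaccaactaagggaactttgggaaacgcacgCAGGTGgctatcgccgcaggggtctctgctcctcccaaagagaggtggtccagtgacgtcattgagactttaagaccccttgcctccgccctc
Cldn7 first start: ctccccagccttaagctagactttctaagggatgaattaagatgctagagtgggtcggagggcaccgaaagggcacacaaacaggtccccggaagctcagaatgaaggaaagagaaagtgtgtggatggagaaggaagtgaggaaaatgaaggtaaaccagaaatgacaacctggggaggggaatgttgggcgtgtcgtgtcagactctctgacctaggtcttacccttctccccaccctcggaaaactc
Cldn7 second start: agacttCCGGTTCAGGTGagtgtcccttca

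CAGGTG or its complement stood in 3 of the 6 member windows, against 17.2% of the 32851 RefSeq promoter windows of the same length. It began 14 bases before the start of Cldn4, 93 before that of Cldn6, and 97 and 57 before the second start of Cldn7. CAGGTA stood 144 bases before the start of Cldn1, and 10.0% of all windows held it. Cldn3 and the first start of Cldn7 held none of these letters in their windows. CCGTTA was in 0 of the 6 windows and in 2.18% of all windows, and AACCGG in 1, touching the E-box 57 bases before the second Cldn7 start, and in 5.62% of all windows. A match is a run of letters and not a measured binding site.

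Of 21 other genes of the claudin list that were measured (20 with claudin symbols, and Tmem114 through its synonym Cldn26), none passed in any of the 3 comparisons. Their median difference was 0.05 in Ovol1/2 DKO against control, 0.13 in labelled Ovol1 KO against control and -0.06 in Ovol1/2 DKO against labelled Ovol1 KO. Many of them gave little signal: 9 were near background on all 6 arrays and 2, Cldn12 and Cldn15, lay above the median of all genes (7.56) on all of them. Cldn12, named after its values were seen, read 10.78 and 10.47 on the control pair, 10.60 and 10.52 on the labelled Ovol1 KO pair, and 10.82 and 10.20 on the Ovol1/2 DKO pair. These 3 groups overlapped (Ovol1/2 DKO minus control -0.12, SE 0.26, limma adjusted p = 1.0). Cldn5, the claudin of vessel walls, read between 6.94 and 7.64.

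By the naming rule, Cldn13 and Cldn9 had the smallest p of these genes in both comparisons with Ovol1/2 DKO. They were at -0.35 and -0.39 (log2) against control (limma adjusted p = 0.743 and 0.806) and -0.63 and -0.52 against labelled Ovol1 KO. Cldn13 was near background on all 6 arrays and Cldn9 on 1, so these differences lie at the floor of the signal. With labelled Ovol1 KO set against control the smallest p were those of Cldn34b2 (0.39) and Cldn20 (0.38), neither passing. Claudin genes that sit next to a member on the chromosome were read as well, chosen after their values were seen. Cldn9, next to Cldn6, read 6.49 and 6.65 on the control pair and 6.40 and 5.96 in Ovol1/2 DKO. Cldn17, next to Cldn8, and Cldn16, next to Cldn1, were near background on all arrays. Cldn3 and Cldn4, with no other protein-coding gene between them, both fell.

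Genes for proteins that build the junction around the claudins fell in part. Of 24 measured membrane partners, scaffolds and polarity genes 9 fell in Ovol1/2 DKO against control and none rose, beside 1.4% and 0.622% of all genes. They had a median difference of -1.17 against 0.03 over all genes. The apical polarity protein Crb3 fell by 4.43 (SE 0.41, limma adjusted p = 0.00781), occludin (Ocln) fell by 3.91 (SE 0.32, limma adjusted p = 0.00551) and tricellulin (Marveld2), which seals corners where cells meet, fell by 3.59 (SE 0.35, limma adjusted p = 0.00840). Crb3 and Marveld2 were near background on both Ovol1/2 DKO arrays and Ocln on 1 of them, so these sizes moved with the offset. With offsets of 1 and 64, Crb3 was at -5.10 and -3.38, Ocln at -4.27 and -3.18 and Marveld2 at -4.28 and -2.57, each passing. Ildr1 passed too (-3.38, SE 0.37, limma adjusted p = 0.0118) and was near background on both Ovol1/2 DKO arrays. Scaffold genes were split. Tjp3 (-2.24, limma adjusted p = 0.0418), Cgn (-1.95, limma adjusted p = 0.0124) and Patj (-1.61, limma adjusted p = 0.028) passed. The claudin-binding scaffold Tjp1 differed by -1.22 (SE 0.25, limma adjusted p = 0.0773), and Magi1 by -0.09 (SE 0.23), neither passing against control. The count was 4 to 10 without single arrays, lowest without either Ovol1/2 DKO array (5 without replicate 1, 4 without replicate 2), and 15 with both Xist-lacking arrays left out, a setting in which 1395 of the 19938 genes passed. Against labelled Ovol1 KO 11 fell, Tjp1 among them (-1.37, SE 0.25, limma adjusted p = 0.0403), where 1.91% of all genes fell. The PDZ scaffold Mpdz rose (1.45, SE 0.22, limma adjusted p = 0.0229), where 1.24% of all genes rose. Mpdz lost that call without any 1 of the 4 arrays compared (limma adjusted p = 0.0568 to 0.164), and without replicate 1 labelled Ovol1 KO 5 genes passed. Between labelled Ovol1 KO and control 0 of the 24 passed, with the smallest p for Mpdz (-0.42) and Tjp3 (0.66).

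Genes tied to claudin stability fell in part as well. Of 5 measured, 3 fell in Ovol1/2 DKO against control, where 1.4% of all genes fell. The rest were lower without passing, Prss8 (-2.82, SE 0.55, limma adjusted p = 0.0669) among them. Epcam, which holds Cldn7 and Cldn1 at the membrane, read 11.93 and 12.15 on the control pair, 11.93 and 12.32 on the labelled Ovol1 KO pair, and 8.78 and 8.74 on the Ovol1/2 DKO pair. It fell by 3.28 (SE 0.22, limma adjusted p = 0.00343). The membrane protease matriptase (St14) fell by 2.97 (SE 0.23, limma adjusted p = 0.00476). The protease inhibitor Spint1 fell by 2.34 (SE 0.25, limma adjusted p = 0.0109), and lost the call without Ovol1/2 DKO replicate 1 (-2.10, limma adjusted p = 0.0616). Against labelled Ovol1 KO all 5 fell (median -2.91), where 1.91% of all genes fell. Prss8 differed by -3.44 there (SE 0.55, limma adjusted p = 0.0256), a call that 5 of 16 alternatives did not keep.

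Of 16 transcription factors tied in earlier work to claudin or junction genes, 4 fell, Ovol1 itself among them, and 2 rose in Ovol1/2 DKO against control, where 2.02% of all genes passed in either direction. The count was 4 without either Ovol1/2 DKO array. Zeb1, a repressor of epithelial genes, read 6.06 and 6.13 on the control pair, 5.88 and 6.29 on the labelled Ovol1 KO pair, and 11.06 and 11.03 on the Ovol1/2 DKO pair. Starting near background, it was 4.95 higher (SE 0.21, limma adjusted p = 0.00257). Zeb2 was 2.19 higher (SE 0.28, limma adjusted p = 0.0183). Grhl3, a Grainyhead factor of the epidermal barrier, fell by 3.68 (SE 0.37, limma adjusted p = 0.00903) and the epithelial factor Elf3 fell by 4.14 (SE 0.38, limma adjusted p = 0.00755). Grhl1 differed by -3.65 (SE 0.56, limma adjusted p = 0.03). Of the alternatives, 4 of 16 did not keep the Grhl1 call and 2 of 15 did not keep that of Zeb2. Snai1 and Snai2, repressors of claudin genes, differed by 0.14 (SE 0.24) and 0.43 (SE 0.32), Grhl2 by -1.37 (SE 0.38) and Klf4 by -0.71 (SE 0.22), none passing. These 4 were named after their values were seen. Against labelled Ovol1 KO 4 of the 16 fell and 3 rose, beside 1.91% and 1.24% of all genes. With the labelled Ovol1 KO arrays against control 0 of the 16 passed, and without both Xist-lacking arrays 7 passed in Ovol1/2 DKO against control, beside 1395 of the 19938 genes.

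**Figure D2:**
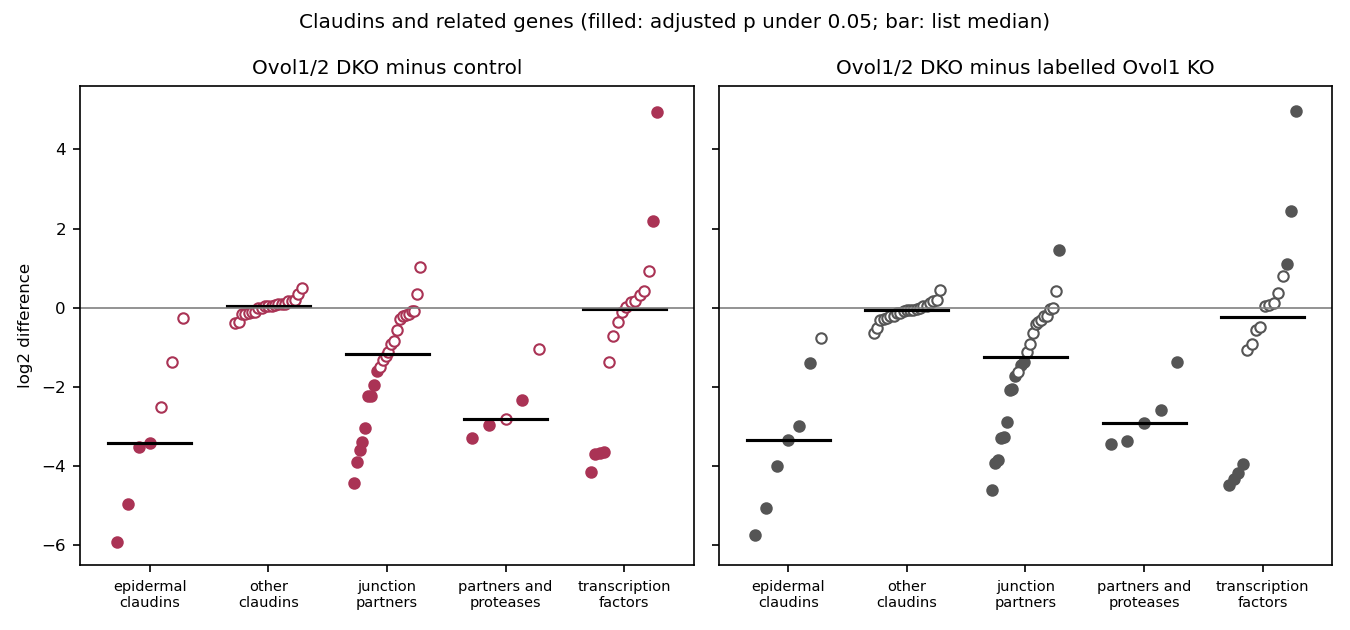
Log2 differences in the comparisons of Ovol1/2 DKO with control (left) and with labelled Ovol1 KO (right) for the epidermal claudins and 4 related gene lists; each point is a gene, filled at a limma adjusted p under 0.05, and bars are list medians. The median is -3.42 for the epidermal claudins and 0.05 for other claudins against control, and Zeb1 stands highest among the transcription factors at 4.95.

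The genes whose pattern lay nearest to each member were found from the root mean square difference (RMSD) over the 6 arrays, after centring each gene on its own mean. Values were not scaled for range, so a member that varies little can have a small RMSD without a closer match in shape. The range was 6.71 for Cldn7 and 1.1 for Cldn8. The 2 nearest genes outside the claudin family were taken, with symbols made of Gm and a number or ending in Rik left out. For Cldn7 these were the amino acid transporters Slc6a14 (RMSD 0.357, log2) and Slc1a1 (0.364). For Cldn3 they were the transglutaminase Tgm1 (0.381), which crosslinks the cornified envelope, and Dynap (0.387). For Cldn4 they were the protease inhibitor Serpinb2 (0.139) and the peptidoglycan-binding protein Pglyrp3 (0.144), and for Cldn6 the cytokine subunit Il23a (0.184) and Ifi202b (0.223).

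Cldn1 lay nearest to Srgap1 (RMSD 0.099) and Tmem159 (0.108), and Cldn8 to Irx3 and Galnt18 (both 0.100). Cldn23 lay nearest to Psapl1 (0.188), at 8.12 and 8.74 on the control pair, 10.62 and 8.66 on the labelled Ovol1 KO pair, and 5.21 and 6.12 on the Ovol1/2 DKO pair, and to Eps8l1 (0.331). Among the members, Cldn4 and Cldn6 were the nearest pair (0.371), followed by Cldn3 and Cldn7 (0.431), while Cldn7 and Cldn8 were farthest apart (2.58). All points share the same 6 arrays, so these are descriptions of those arrays.

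Markers of differentiation and of other cells moved beside the claudins, and their part in the claudin differences was not tested. Of 12 measured late differentiation genes 3 fell in Ovol1/2 DKO against control, where 1.4% of all genes fell, among them Tgm1 at -5.00 (SE 0.41, limma adjusted p = 0.00551). The lamellar granule transporter Abca12 stood at -4.53 (SE 0.35, limma adjusted p = 0.00476). Sprr1b stood at -5.33 (SE 0.83, limma adjusted p = 0.0314), a call that 5 of 16 alternatives did not keep. The mean level of all 12 late differentiation genes was 9.58 and 10.44 on the control pair, 10.99 and 9.38 on the labelled Ovol1 KO pair, and 7.59 and 7.93 on the Ovol1/2 DKO pair. That mean was highest on replicate 1 labelled Ovol1 KO, the array on which Cldn23 was highest. The summed intensity of the list ran from 21500 to 36800 in control, 22200 to 44100 in labelled Ovol1 KO and 3220 to 3870 in Ovol1/2 DKO. Keratins of the first suprabasal layers did not pass (Krt1 -0.28, SE 0.19, and Krt10 -0.23, SE 0.20). No basal keratinocyte marker of 9 passed against control (median 0.29), and their summed intensity was 37200 to 38500 in control, 32600 to 35800 in labelled Ovol1 KO and 44200 to 45300 in Ovol1/2 DKO.

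Of 8 periderm and simple epithelium markers, the keratins Krt7, Krt8 and Krt19 fell, beside 1.4% of all genes. Each lost the call without control replicate 2 (-2.25, -1.60 and -2.50) or without Ovol1/2 DKO replicate 1 (-2.09, -1.57 and -2.09). Krt8 lost it without Ovol1/2 DKO replicate 2 (-2.01) and Krt19 without any 1 of the control and labelled Ovol1 KO arrays as well (-3.22 to -2.50). The list summed to 30500 to 34900 in control, 29400 to 34600 in labelled Ovol1 KO and 16400 to 16900 in Ovol1/2 DKO, with Krt20, a Merkel cell keratin, near background on all arrays. Of 10 fibroblast markers Thy1 rose (1.67, SE 0.22, limma adjusted p = 0.0187; 0.0962 without control replicate 2, 0.110 and 0.141 without either Ovol1/2 DKO array). The fibroblast list summed to 1010 to 1850 in control, 1090 to 1840 in labelled Ovol1 KO and 1780 to 2640 in Ovol1/2 DKO, and Lum was near background on all arrays. Of these sums Thy1 gave 238 and 235 in control and 770 and 804 in Ovol1/2 DKO. The list median against control was 0.07, with 3 of 10 differences negative. Of 7 melanocyte, 6 endothelial and 6 leukocyte markers none passed against control. Without both Xist-lacking arrays 6 late differentiation, 3 basal, 4 periderm and simple epithelium, 2 fibroblast, 2 melanocyte, 0 endothelial and 1 of the leukocyte markers passed against control. The count over all genes rose from 403 to 1395 of 19938 in that setting, so these counts are not a result about the markers. The melanocyte list summed to 1160 to 1290 in control, 793 to 1050 in labelled Ovol1 KO and 600 to 742 in Ovol1/2 DKO. The endothelial list summed to 898 to 1010, 618 to 644 and 775 to 808 in the same order of groups, and the leukocyte list to 267 to 592, 252 to 376 and 279 to 310. Tyr, Cdh5, Tek, Emcn, Cd52 and Cd74 were near background on all arrays.

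The same markers were read for Ovol1/2 DKO against labelled Ovol1 KO, where 1.91% of all genes fell and 1.24% rose. Of the 12 late differentiation genes 5 fell (median -1.67), and 2 did without replicate 1 labelled Ovol1 KO. Of the 9 basal markers Trp63, a master regulator of stratified epithelia, rose (1.1, limma adjusted p = 0.0464), as did Dst (1.34, limma adjusted p = 0.0267), a hemidesmosome linker, with a list median of 0.75. Neither kept its call without any 1 of the 4 arrays compared (limma adjusted p = 0.0724 to 0.284), and Trp63 also lost it without either control array (limma adjusted p = 0.0553). Krt7, Krt8 and Krt19 fell, and all 3 lost the call without either labelled Ovol1 KO array or without Ovol1/2 DKO replicate 1 (limma adjusted p = 0.0609 to 0.173). Krt8 lost it without Ovol1/2 DKO replicate 2 too (limma adjusted p = 0.0987). The fibroblast list had a median of -0.01, with 5 of 10 differences negative, and the endothelial list a median of 0.04. Of their genes only Thy1 (1.90, limma adjusted p = 0.0106) and the endothelial adhesion gene Pecam1 (1.28, limma adjusted p = 0.0204) passed, each higher. Both missed the threshold without replicate 1 labelled Ovol1 KO or either Ovol1/2 DKO array (limma adjusted p = 0.0502 to 0.162). No melanocyte or leukocyte marker passed.

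**Figure D3:**
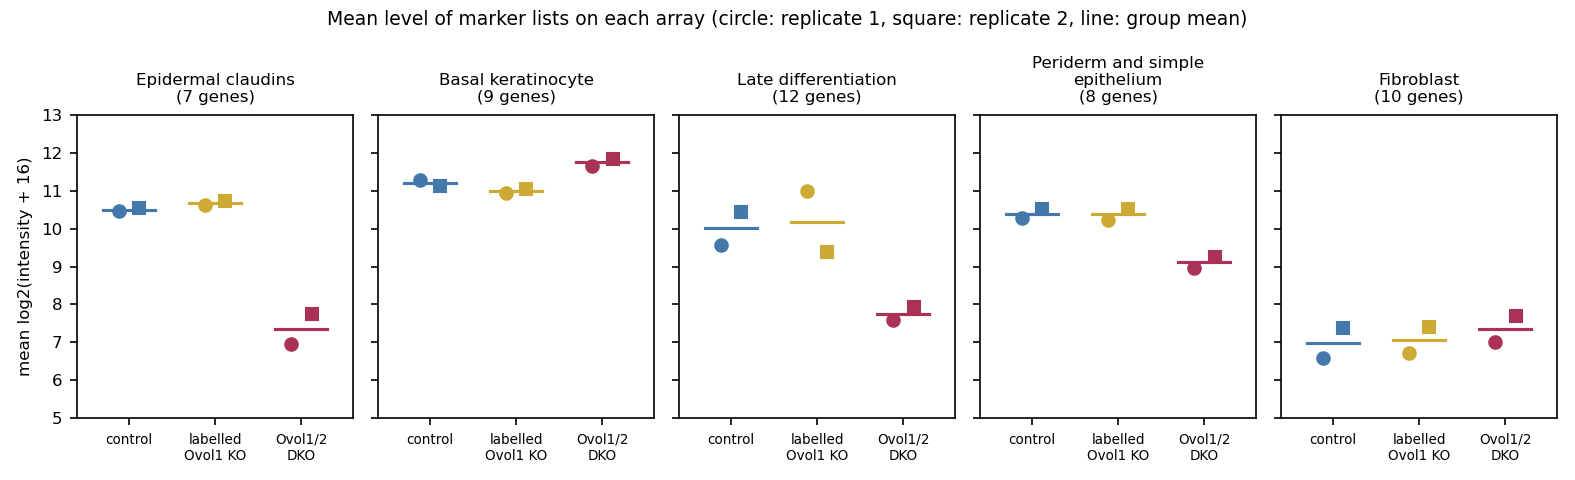
Mean level, as log2(intensity + 16), of the epidermal claudins and 4 marker lists on each array; circles are replicate 1, squares replicate 2 and lines group means. The claudin mean is 6.97 and 7.76 in Ovol1/2 DKO against 10.46 and 10.54 in control, and the late differentiation mean spreads widely within control (9.58 and 10.44) and labelled Ovol1 KO (10.99 and 9.38).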

How the data were processed

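The file the authors deposited gives a linear intensity for each probe set on the 6 arrays. The submitters' processing notes name Affymetrix Expression Console 1.1.1 and PLIER 2.0, which summarises probes. How background and array scale were treated is not given in the sources used here. Of 35556 probe sets, a platform annotation gave 1 symbol to 21789, several to 1621 (not named here) and none to 12146. Entrez identifiers updated symbols to GRCm38.p6 names, with 91 unmatched. For 999 genes with several probe sets the brightest was kept.

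The scale log2(intensity + 16) understates changes of dim genes. A group-means model over all 6 arrays (limma 3.58.1, R 4.3.3, lmFit and eBayes, 3 residual and 3.68 prior degrees of freedom) gave the 3 comparisons. Benjamini-Hochberg adjustment ran over all genes, with a threshold of 0.05. The fit was tested on simulated data. Each array was left out in turn, and other settings were a replicate block, only the arrays of the groups compared, quantile scaling, centring on medians, offsets of 1 and 64, no dim genes, all probe sets and the mean over probe sets. Leaving out both arrays without Xist, and the level called near background, were chosen after seeing the data. Promoters were searched in Python 3.11.15.

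The members and gene lists were chosen with earlier results of these data known. Named were all members and, from each list, at most 4 passing genes per direction, or the 2 genes of smallest p in a list with no passing gene, marker lists aside. For Ovol1/2 DKO against labelled Ovol1 KO not every gene of this rule is given. Krt1, Krt5, Krt10, Krt14, Tjp1, Tjp3, Cgn, Patj, Magi1, Snai1, Snai2, Grhl2, Klf4, Cldn5, Cldn12, Cldn15, Cldn16, Cldn17 and markers near background were added after their values were seen. A synonym matched 2 symbols of the lists, and some list symbols, 7 claudin symbols among them, are not analysed here. A comparison of protein sequences, planned at first, was not run.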

Additional observations from a re-analysis of the deposited data

How the results depend on the processing

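Cldn3, Cldn4, Cldn6 and Cldn7 kept their direction and their call against control in all 16 alternatives, and Cldn4, Cldn6 and Cldn7 also against labelled Ovol1 KO. For each comparison, leaving out either array of the group not compared and fitting only the groups compared give the same fit. With replicate number as a block, 5 members fell against control (Cldn1 at a limma adjusted p of 0.0217), 6 against labelled Ovol1 KO and 0 between labelled Ovol1 KO and control. Over all genes the block moved the count from 403 to 597 against control and from 628 to 1022 against labelled Ovol1 KO. The numbers do not mark a shared day or litter in the labels, and deviations of replicate 1 arrays from their group means correlated at 0.261, 0.490 and 0.194 between groups. Cldn1 passed against control with median centring (0.0470) and dim genes left out (0.0388), and missed the threshold against labelled Ovol1 KO with quantile normalization (0.0631) and an offset of 64 (0.0595), as did Cldn23 with that offset (0.0703). The member count against labelled Ovol1 KO was 3 to 6 without single arrays. The count of junction partners against control was 4 to 10 without single arrays, 5 with an offset of 64 and 15 without both arrays lacking Xist; against labelled Ovol1 KO it was 5 to 13 and, with an offset of 64, 7. In labelled Ovol1 KO against control no member passed in any alternative and small differences changed sign: without single arrays Cldn1 ran from -0.11 to 0.17, Cldn3 from -0.29 to 0.49, Cldn4 from -0.27 to 0.09 and Cldn7 from -0.57 to 0.20, and without both arrays lacking Xist Cldn1 was -0.03, Cldn4 0.11, Cldn6 0.00, Cldn7 0.13 and Tjp3 -0.06. Where arrays were left out the number of arrays fitted was smaller; otherwise the cause was not tested. A group left with 1 array is assumed to vary like the others, and its own spread was not measured. Counts over all genes moved in these fits too, so counts of passing members or list genes there are not a result about those genes. Leaving out dim genes removed Cldn8 and Cldn23. Levels near background limit the size of the Cldn3, Cldn7, Cldn8, Cldn23, Crb3, Ocln, Marveld2, Elf3 and Zeb1 differences. The same holds for Ildr1, Tjp3, Grhl1, Zeb2 and Sprr1b.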
